A study of Drosophila melanogaster with 16 samples.

Results

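The diet effect in Alstonville larvae was taken as the difference between 4 libraries of larvae from the 1:16 P:C diet and 4 of larvae from the 1:2 P:C diet, which are 8 of the 16 libraries of the study. P:C is the ratio of protein to carbohydrate, so that the 1:16 P:C diet is the sugar-rich food (mostly treacle and sucrose) and the 1:2 P:C diet the food richer in yeast and semolina, at like energy. Libraries were assigned to a diet by their labels and not by any measured value. Alstonville and Dahomey are Drosophila melanogaster mitotypes, that is lines carrying mtDNA of those names that had been backcrossed to the w1118 nuclear background, which all 16 libraries share. Some variation of chromosome 4 may remain between the lines. The labels give the stage as larvae of the third instar, and the methods of the study describe whole female wandering larvae, taken after they had left the food. The flies had been kept on instant food before their eggs were moved to the diets, with microbiota added. The other 8 libraries, of Dahomey larvae on the same diets, entered the fit to share its estimate of spread and the test of whether a diet effect differed between mitotypes. Of 17207 genes in the count table, 12750 had enough reads to test.

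At the end of larval life the steroid hormone ecdysone, made in the prothoracic gland, ends feeding and starts metamorphosis through a cascade of transcription factors, and glue proteins fill the salivary glands until they fix the puparium to its support. The fat body, the insect counterpart of liver and adipose tissue, releases storage proteins and keeps lipid and glycogen, while the midgut secretes proteases and carbohydrases. Sugar is sensed in Drosophila by the paired transcription factors Mondo and bigmax, insulin-like peptides from the brain and fat body set growth, and the TOR kinase responds to amino acids.

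On the 1:16 diet, 7 of 11 glue genes, most ecdysone genes and 4 of 8 fat body storage genes were lower than on the 1:2 diet. Of the glue genes 4 were higher, and of the storage genes 1. Most proteasome and DNA replication genes were also lower. Genes for trypsins, fatty acid synthesis, the TCA cycle, oxidative phosphorylation, cytosolic and mitochondrial ribosomes and muscle were higher. Of the 12750 tested genes, 7640 (59.9%) differed at an adjusted p under 0.05 in edgeR's quasi-likelihood test. Of them 3898 (30.6%) were higher on the 1:16 diet and 3742 (29.3%) lower. Over all genes tested the median log2 fold change was -0.11, and the quartiles were -0.97 and 0.70. A fold of more than 8, or 3 on the log2 scale, was reached by 291 called genes that rose and 723 that fell. For 6788 genes (53.2%) the 4 libraries of one diet did not overlap the 4 of the other (29.1% higher and 24.1% lower on the 1:16 diet), and so a share of a gene list near these figures says nothing of that list. Called genes made up 57.45 to 61.49% of those tested on chromosome arms X, 2L, 2R, 3L and 3R and 70.21% of the 94 tested on chromosome 4.

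Library totals were 25132180 to 30340627 counts on the 1:16 diet and 29264081 to 31896525 on the 1:2 diet. The 1:16 libraries resembled each other more closely, with a median gene difference of 0.0992 to 0.129 on the log2 scale between any pair, against 0.181 to 0.416 between pairs on the 1:2 diet. Replicate 4 on the 1:2 diet lay nearest to the mean of the 1:16 libraries (median gene distance 0.551, against 0.794 to 0.966 for replicates 1 to 3). Its TMM factor of 0.849 was also within the range of 0.794 to 0.861 of the 1:16 libraries and below those of 1.16 to 1.19 in the other 1:2 libraries. Transcripts of the male germ line were present in replicates 2 and 3 on the 1:2 diet: the testis tubulin betaTub85D was at 0.294, 62.5, 40.3 and 0.0402 CPM in replicates 1 to 4 on that diet and at 0.711, 0.913, 0.0885 and 1.43 CPM on the 1:16 diet. Alike, dj was at 0.0294, 15.7, 11.2 and 0 CPM on the 1:2 diet and Mst87F, a sperm protein gene, at 0.470, 12.9, 7.50 and 0.201 CPM. The RNA of the male dosage compensation complex, lncRNA:roX1, stood at 15.8, 152, 191 and 20.8 CPM on the 1:2 diet and at 251, 113, 176 and 503 CPM on the 1:16 diet, although the larvae were described as female. Summed over the 23 testis and male genes counted, the level was 46.6, 395, 376 and 68.7 CPM on the 1:2 diet. It was 324, 183, 238 and 602 CPM on the 1:16 diet, most of it lncRNA:roX1. The part of these transcripts in the results was not tested. Replicate 3 on the 1:2 diet also held few transcripts of the phagocyte receptor eater (63.1, 67.3, 3.001 and 65.2 CPM in the 4 libraries). The main counts of called genes are therefore given also without replicates 2 and 3, or without other named 1:2 libraries. Without replicates 2 and 3, lncRNA:roX1 was called higher on the 1:16 diet (3.73, adjusted p = 0.0452). That fit therefore does not even out lncRNA:roX1 between the diets. Calls also fell over all genes, with 2694 of 12473 higher without replicates 2 and 3, against 3898 of 12750 in the main fit. Without replicates 1 and 2 it was 2965 of 12561. Counts of a list in these fits are to be read beside those. Strand was not stated for the counting, so that reads of overlapping genes cannot be told apart, which concerns 46.4% of the tested genes and 63 of the 176 with values given here, among them br, EcR, Hsp27, Amyrel, sug, ACC and CycA. Values are CPM, the read counts of a gene relative to the TMM-scaled library total, in the order of replicates 1 to 4, and log2 fold changes are of 1:16 over 1:2.

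**Figure D1:**
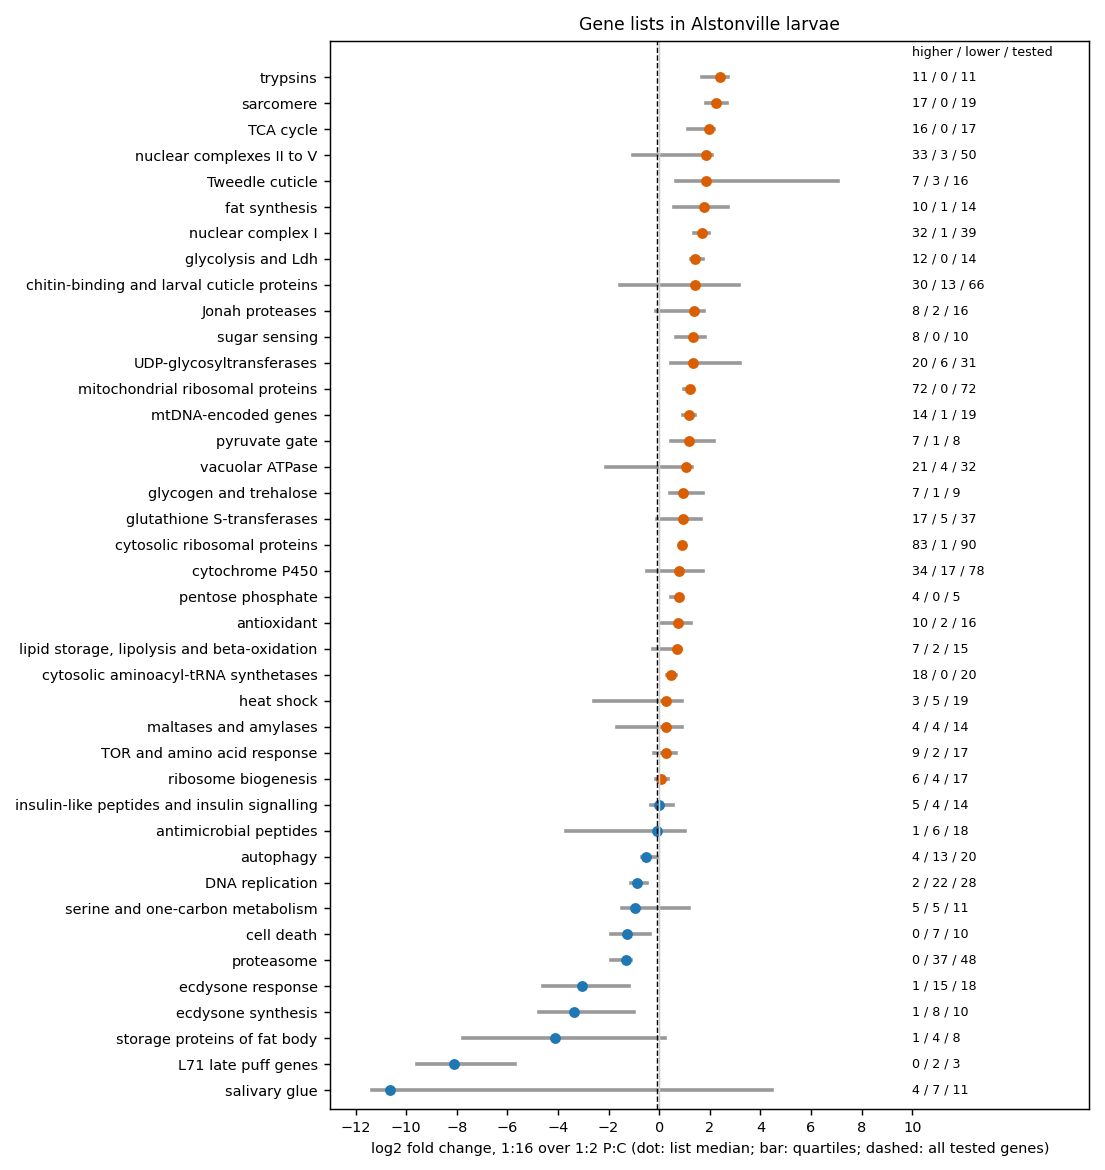
Median log2 fold change (1:16 over 1:2, Alstonville larvae, 4 libraries each) of 40 gene lists, with bars for the quartiles of each list, the dashed line at -0.11 for all 12750 tested genes and, on the right, the members called higher, called lower and tested. Trypsins (2.38) and sarcomere genes (2.24) stand highest and salivary glue genes (-10.65) lowest, and the L71 genes fall to a median of -3.31 when a member without reads on one diet is put at its bound.

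Salivary glue genes held some of the largest drops. Sgs3, which encodes the main mucin of the glue, was at 6038, 5499.8, 3899 and 4496 CPM on the 1:2 diet and at 1.80, 1.74, 2.26 and 1.80 CPM on the 1:16 diet. The libraries of the diets did not overlap, and every 1:16 library held a few CPM at most (log2 fold change -11.35, SE 2.25, adjusted p = 0.000722). Its neighbours on chromosome arm 3L, Sgs7 (chr3L:11509861-11510247) and Sgs8 (chr3L:11508967-11509394), are small glue proteins that lie beside Sgs3 (chr3L:11512221-11513402, assembly Release 6 plus ISO1 MT). Sgs8 fell from 437 to 1162 CPM to 0.133 to 0.460 CPM (log2 fold change -11.47, SE 2.20, adjusted p = 0.000555), and Sgs7 from 1704 to 3513 to 0.832 to 1.29 CPM. Sgs4 and Sgs5bis, 2 further glue genes, changed by -10.65 and -11.42 on the log2 scale. Of the 11 tested genes of the list, 7 were lower and 4 higher on the 1:16 diet. Those that rose include ng1, ng2 and Pig1, genes of the 3C cluster that salivary glands express before the glue genes. ng2 was at 0.0882, 0.290, 0.132 and 2.45 CPM on the 1:2 diet and at 81.1, 157, 106 and 113 CPM on the 1:16 diet, with replicate 4 the highest of its diet (log2 fold change 7.38, SE 0.98, adjusted p = 3.33e-05). Pig1 rose from 6.79 to 16.4 to 62.3 to 123 CPM (log2 fold change 2.91, SE 0.40, adjusted p = 4.45e-05), and ng1 by 6.45 on the log2 scale. In whole larvae, fewer or smaller cells of a gland and less RNA per cell cannot be told apart, here and in the results that follow.

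Genes of ecdysone synthesis and response were mostly lower on the 1:16 diet. In the 10 tested genes of ecdysone synthesis, 8 were lower and 1 higher (median -3.36). spok, the cytochrome P450 of an early step in the prothoracic gland, was at 77.02, 63.1, 48.4 and 51.1 CPM on the 1:2 diet and at 1.97, 3.07, 1.46 and 2.13 CPM on the 1:16 diet, without overlap (log2 fold change -4.79, SE 0.32, adjusted p = 2.68e-07). Of the same gland, the P450 genes phtm (-3.45) and sad (-5.38) and the dehydrogenase gene sro (-5.97) fell on the log2 scale (adjusted p = 1.34e-06, 2.71e-06 and 1.49e-05). shd, which makes the active hormone in outer tissues, fell from 101 to 201 to 64.8 to 91.3 CPM, a smaller change (log2 fold change -0.94, SE 0.18, adjusted p = 0.00062). Of 18 response genes 15 were lower and 1 higher (median -3.05). The hormone receptor EcR was at 350.0, 278, 230.1 and 162 CPM on the 1:2 diet and at 43.98, 52.6, 47.5 and 42.7 CPM on the 1:16 diet (log2 fold change -2.45, SE 0.30, adjusted p = 1.91e-05). The early factor br (broad) was at 2121, 1526, 761 and 470.0 CPM against 37.9, 65.9, 43.6 and 44.5 CPM, and Eip74EF at 342, 273, 146 and 143 CPM against 19.8, 24.5, 19.8 and 19.8 CPM. Within the 1:2 diet, replicates 1 and 2 were above replicates 3 and 4 for all of EcR, br and Eip74EF, and the libraries of the diets did not overlap for any of them (br -4.67, Eip74EF -3.43). Without replicates 1 and 2, 9 response genes were called lower and the median was -0.97.

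Late genes of the cascade fell as well. Eip93F, a factor of tissue destruction at metamorphosis, went from 7.24 to 24.7 to 0.266 to 0.795 CPM (log2 fold change -4.88, SE 0.60, adjusted p = 1.81e-05). Eig71Ee, a secreted salivary gland protein of the L71 cluster, was at 2226, 1863, 592 and 397 CPM on the 1:2 diet and at 0.753, 0.581, 0.575 and 0.508 CPM on the 1:16 diet (log2 fold change -11.02, SE 2.47, adjusted p = 0.00172). Its levels on the 1:2 diet were higher in replicates 1 and 2 than in replicates 3 and 4. Small heat shock genes that respond to ecdysone followed the same order of libraries. Hsp27, a small chaperone, was at 1045, 766, 209 and 126 CPM on the 1:2 diet and at 14.6, 16.9, 13.5 and 29.8 CPM on the 1:16 diet (log2 fold change -4.84, SE 0.77, adjusted p = 0.000134). Hsp23, named after its values were seen, was at 2592, 1768, 285 and 139 CPM against 21.7, 24.7, 20.4 and 29.7 CPM. Over the 19 heat shock genes 3 were higher and 5 lower, and without replicate 1 on the 1:2 diet 10 were higher.

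Fat body storage proteins, the amino acid reserve for metamorphosis, were mixed in extent. Fbp1, the receptor that takes storage proteins back into the fat body, was among the most abundant transcripts on the 1:2 diet at 42065, 37279, 9786 and 25985 CPM and was at 10.3, 13.1, 11.8 and 9.93 CPM on the 1:16 diet (log2 fold change -11.32, SE 2.25, adjusted p = 0.000726). The storage protein Lsp2 was at 15396, 14225, 17705 and 24939 CPM on the 1:2 diet and at 8.12, 157, 8.45 and 15.9 CPM on the 1:16 diet. Replicate 2 on the 1:16 diet was far above the other libraries of that diet, and no library of one diet reached the other (log2 fold change -8.57, SE 1.37, adjusted p = 0.00014). Fbp2, a fat body protein related to alcohol dehydrogenase, went from 3054 to 7780.5 to 2.43 to 111 CPM, again with replicate 2 the highest on the 1:16 diet. Lsp1alpha was at 2678, 6651, 3035 and 26694 CPM against 61.4, 641, 55.9 and 121 CPM (log2 fold change -5.47, SE 1.002, adjusted p = 0.000392). Its partners in the same larval serum protein, Lsp1beta and Lsp1gamma, are named after their values were seen. Lsp1beta was at 1441, 5857, 4807 and 30869 CPM on the 1:2 diet and 5415, 28854, 5239.5 and 11333 CPM on the 1:16 diet, which overlap (log2 fold change 0.24, adjusted p = 0.792). It was called higher without replicate 4 of the 1:2 libraries (1.66, adjusted p = 0.0346). Lsp1gamma was at 1518, 4408, 9242 and 28965 CPM against 72.3, 6058, 62.1 and 249 CPM, not called (log2 fold change -2.78, SE 1.29, adjusted p = 0.0773). Lsp1gamma passed the threshold without replicate 2 of the 1:16 libraries (-6.43, adjusted p = 0.000305), in DESeq2 (-2.84, adjusted p = 0.0153), in limma (-4.50, adjusted p = 0.00531, or 0.00441 with surrogate variables) and with a replicate block (-4.32, adjusted p = 0.0381). Apoltp, a lipid transfer apolipoprotein of the haemolymph, was the member that rose, from 32.1, 25.4, 115 and 155 CPM to 576, 547, 459 and 401 CPM (log2 fold change 2.60, SE 0.49, adjusted p = 0.000458). Of 8 storage genes 4 fell and 1 rose, and without replicate 4 on the 1:2 diet 3 rose.

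**Figure D2:**
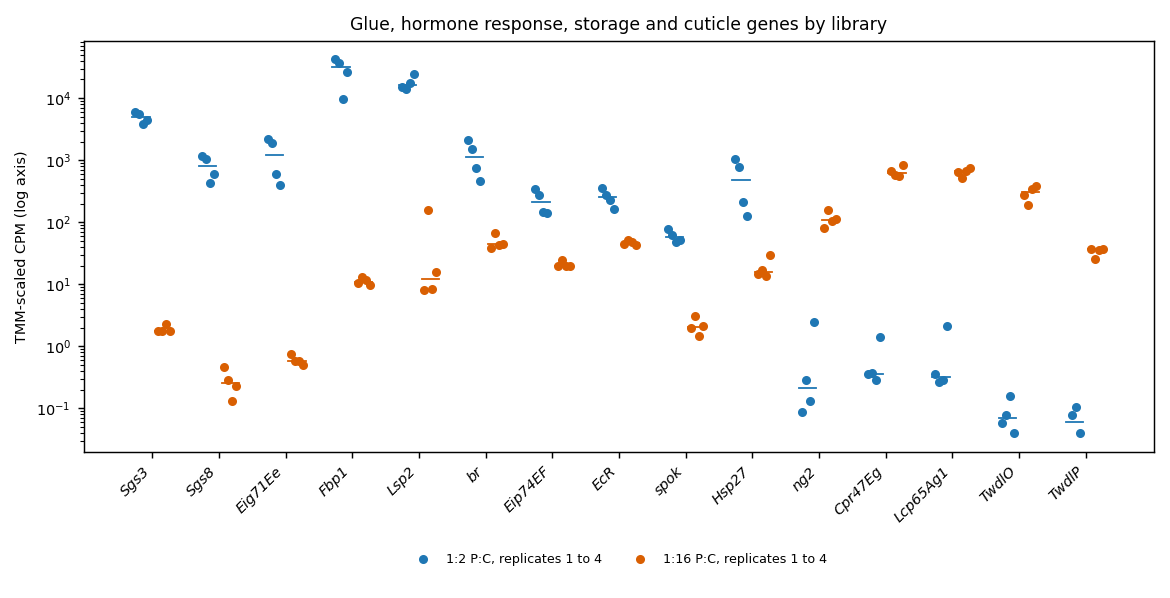
TMM-scaled CPM (log axis) of glue, hormone response, storage and cuticle genes in each of the 4 libraries per diet, with a line at the median of the diet. TwdlP had no reads in replicate 1 on the 1:2 diet, which a log axis cannot show. The diets do not overlap for any gene drawn, and replicate 2 on the 1:16 diet stands apart for Lsp2 (157 CPM).

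Cuticle genes moved in both directions. Of 16 Tweedle genes, cuticle proteins that shape the body, 7 were higher and 3 lower (median 1.86). That median was 0.96 to 1.07 without any one of the 1:16 libraries, 2.76 without replicate 4 on the 1:2 diet, 0.93 with at least 10 counts in every library and 3.04 in the fit to the 8 Alstonville libraries. TwdlO (chr3R:26625932-26626738) was at 0.0588, 0.0791, 0.158 and 0.0402 CPM on the 1:2 diet and at 273, 187, 339 and 390.5 CPM on the 1:16 diet (log2 fold change 11.65, SE 0.56, adjusted p = 6.79e-08). TwdlP was at 0, 0.0791, 0.105 and 0.0402 CPM against 37.2, 25.4, 35.6 and 37.5 CPM (log2 fold change 9.07, SE 0.60, adjusted p = 2.49e-07). Both were all but absent on the 1:2 diet, and no library overlapped. Of 66 chitin-binding and larval cuticle genes 30 rose and 13 fell (median 1.42). Without replicates 2 and 3 on the 1:2 diet 23 rose and 14 fell (median 0.91). The counts were 21 and 15 without replicates 1 and 2 (median 0.64) and 38 and 15 without replicate 4 (median 2.66). Cpr47Eg was at 0.353, 0.369, 0.290 and 1.41 CPM against 673, 586, 558 and 838 CPM (log2 fold change 10.16, SE 0.60, adjusted p = 1.36e-07), and Lcp65Ag1 at 0.353, 0.264, 0.290 and 2.13 CPM against 644, 518, 673 and 749 CPM (log2 fold change 9.81, SE 0.79, adjusted p = 8.95e-07). Lcp65Ag1 has near-identical neighbours, so its share of their reads is uncertain. Cpr31A rose from 0.294 to 0.966 to 29.9 to 33.4 CPM (log2 fold change 5.63, SE 0.44, adjusted p = 7.74e-07). Lcp1, a major protein of the larval cuticle named after its values were seen, went the other way, from 3985, 6562, 5023 and 11604 CPM to 12.5, 52.9996, 12.2 and 15.4 CPM (log2 fold change -8.19, SE 0.98, adjusted p = 1.46e-05). Replicate 4 was the highest 1:2 library for Cpr47Eg, Lcp65Ag1, Cpr31A and Lcp1 alike.

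All 11 trypsin genes of the midgut cluster rose on the 1:16 diet, with a median of 2.38. alphaTry, with the highest level of them on the 1:2 diet, was at 660.5, 716, 1162 and 1152 CPM on the 1:2 diet and at 2577, 2558, 2341 and 2383 CPM on the 1:16 diet (log2 fold change 1.42, SE 0.20, adjusted p = 4.98e-05). epsilonTry was at 95.5, 138, 348 and 475 CPM against 3336, 3163, 3114 and 2798 CPM (log2 fold change 3.55, SE 0.46, adjusted p = 2.81e-05), and thetaTry at 0.559, 1.58, 3.18 and 7.12 CPM against 142, 264, 132 and 141 CPM (log2 fold change 5.79, SE 0.66, adjusted p = 1.14e-05). deltaTry rose from 64.6 to 220.2 to 509.9 to 674 CPM. For all of these trypsins the diets did not overlap, and for alphaTry, epsilonTry and thetaTry replicates 3 and 4 on the 1:2 diet stood above replicates 1 and 2. Of 16 Jonah genes, which encode serine proteases of the midgut, 8 rose and 2 fell (median 1.37). Jon65Aiv was at 1419, 2463, 2348 and 6791 CPM against 9072, 12653, 10141 and 10993 CPM (log2 fold change 1.72, SE 0.42, adjusted p = 0.00303), and Jon74E rose from 43.2 to 243 to 590.4 to 1192 CPM. Jon99Ci fell from 28.5, 47.9, 121 and 318 CPM to 13.9, 19.96, 11.9 and 5.59 CPM (log2 fold change -3.33, SE 0.76, adjusted p = 0.00197). Leaving out replicates 2 and 3 on the 1:2 diet, 4 Jonah genes and 8 trypsins were called higher. Midgut markers summed to 3006, 4483, 6004 and 12259 CPM on the 1:2 diet and 17129, 21296, 17569 and 19025 CPM on the 1:16 diet (6 of 8 higher and 2 lower), and 7 of these markers are themselves digestive proteases. Of these markers 2 were called higher without replicates 2 and 3, 2 without replicates 1 and 2, and 4 without replicate 1 or without replicate 2. The part of midgut mass in these values was not tested.

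Carbohydrase genes had no common direction. Of 14 maltase and amylase genes 4 rose and 4 fell (median 0.27). Both counts are near the shares over all tested genes (30.6% higher and 29.3% lower), and so say nothing of the list. Amyrel, an amylase-related enzyme, was at 258, 272, 800.2 and 1083 CPM on the 1:2 diet and at 8.33, 2.49, 6.28 and 4.16 CPM on the 1:16 diet (log2 fold change -6.82, SE 0.70, adjusted p = 4.99e-06). tobi, an alpha-glucosidase known as a target of insulin and adipokinetic hormone signals, was at 69.4, 161, 434 and 956 CPM against 35.9, 8.43, 35.8 and 14.9 CPM (log2 fold change -4.09, SE 0.77, adjusted p = 0.000476). Mal-A7, a maltase, moved the other way, from 0.353, 2.90, 4.11 and 8.85 CPM to 55.2, 46.1, 50.6 and 53.7 CPM (log2 fold change 3.67, SE 0.70, adjusted p = 0.000526). Mal-A6, the member with the highest mean over all libraries, was not called, at 144, 319, 543 and 1069.7 CPM against 1011, 769, 1066 and 994 CPM (log2 fold change 0.89, SE 0.47, adjusted p = 0.11). Replicate 4 on the 1:2 diet lay within the 1:16 libraries for Mal-A6, and without it the gene was called (1.52, adjusted p = 0.00575). Without replicate 3, 2 carbohydrase genes were higher. Without replicates 2 and 3, 2 were higher and the median was -0.14, and without replicates 1 and 2 it was -0.48.

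Of 10 sugar-sensing genes 8 rose and 0 fell (median 1.35). sug (sugarbabe), a transcription factor induced by sugar through Mondo, was at 18.9, 16.2, 9.63 and 23.2 CPM on the 1:2 diet and at 161, 174, 184 and 106 CPM on the 1:16 diet (log2 fold change 3.20, SE 0.32, adjusted p = 4.52e-06). The sensor itself was changed less. Mondo was at 81.8, 94.1, 86.6 and 139 CPM against 185, 193, 176 and 179 CPM (log2 fold change 0.87, SE 0.14, adjusted p = 0.00011), and its partner bigmax went from 13.8 to 14.3 to 17.7 to 20.5 CPM (log2 fold change 0.45, SE 0.091, adjusted p = 0.000784), a call lost without replicates 2 and 3 on the 1:2 diet (0.35, adjusted p = 0.0669). The TGF-beta ligand daw (dawdle) rose from 40.3 to 73.4 to 148 to 195 CPM (log2 fold change 1.40, SE 0.16, adjusted p = 1.08e-05). Akh, the adipokinetic hormone that mobilizes stored energy, was at 2.32, 2.06, 2.34 and 2.21 CPM against 6.78, 6.43, 5.40 and 6.33 CPM, and its receptor AkhR at 14.9, 14.5, 12.7 and 22.6 CPM against 67.3, 81.6, 73.5 and 69.7 CPM. Both rose without overlap (Akh 1.48, adjusted p = 3.38e-06, and AkhR 2.17, adjusted p = 2.92e-07). aay (astray), a phosphoserine phosphatase, rose by 1.30 on the log2 scale. The nuclear receptor gene Hr38 spread widely on the 1:2 diet, at 0.588, 1.002, 4.90 and 14.04 CPM against 16.7, 18.7, 23.1 and 18.2 CPM (log2 fold change 1.91, SE 0.73, adjusted p = 0.0374). Its call was lost without any one of the 4 libraries on the 1:16 diet (adjusted p from 0.0546 to 0.0736), without replicate 1, 2 or 3 on the 1:2 diet (0.054 to 0.0798) or without replicate 2 of Dahomey on the 1:2 diet (0.0533). The zinc finger gene cbt (log2 fold change 0.60, SE 0.36, adjusted p = 0.16) and the nuclear receptor gene Hnf4 (log2 fold change 0.19, SE 0.12, adjusted p = 0.161) were not called. Without replicate 1 on the 1:2 diet cbt was called (0.99, adjusted p = 0.0272), and without replicate 4 Hnf4 was (0.33, adjusted p = 0.00518).

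Of 14 fat synthesis genes 10 were higher and 1 lower (median 1.76). Desat1, the main acyl-CoA desaturase, was at 278, 378, 807 and 1557 CPM on the 1:2 diet and at 4929, 5079.5, 4842 and 5017 CPM on the 1:16 diet (log2 fold change 2.72, SE 0.44, adjusted p = 0.00015). ACC, acetyl-CoA carboxylase, which commits carbon to fatty acids, was at 61.97, 64.02, 154 and 309.7 CPM against 1057, 1015, 939 and 724 CPM (log2 fold change 2.66, SE 0.47, adjusted p = 0.000287). FASN1, the fatty acid synthase of the fat body, named after its values were seen, was at 108, 228, 537 and 1518 CPM against 4248, 4863, 4119 and 3331 CPM (log2 fold change 2.79, SE 0.66, adjusted p = 0.0024). In all of these genes replicate 4 was the highest 1:2 library and lay below every 1:16 library. Gpat4, of triacylglycerol synthesis, rose from 68.2 to 113 to 193 to 210.0 CPM. FASN3, the fatty acid synthase of oenocytes, was the member that fell, from 200.5, 219.5, 252 and 218 CPM to 46.5, 82.97, 55.1 and 81.1 CPM (log2 fold change -1.74, SE 0.26, adjusted p = 7.94e-05). With replicates 2 and 3 on the 1:2 diet left out, 6 genes were higher and 1 lower.

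Lipid storage and breakdown genes were mixed, with 7 of 15 higher and 2 lower (median 0.71), with a median of 0.14 without replicates 2 and 3 on the 1:2 diet and 0.12 without replicates 1 and 2. Lip3, an acid lipase, was at 211, 276, 1016 and 1195 CPM on the 1:2 diet and at 3.22, 2.53, 2.92 and 2.59 CPM on the 1:16 diet, without overlap (log2 fold change -7.90, SE 0.65, adjusted p = 1.1e-06). bmm (brummer), the main triglyceride lipase of the fat body, named after its values were seen, was at 166, 124, 133 and 90.2 CPM against 28.2, 40.6, 40.9 and 42.8 CPM (log2 fold change -1.75, SE 0.28, adjusted p = 0.000147). Lsd-2, a perilipin that protects lipid droplets, was at 434, 353, 343 and 504 CPM against 648, 816, 799.8 and 661 CPM (log2 fold change 0.84, SE 0.13, adjusted p = 0.000133). Thus the droplet lipase gene was lower and the droplet protein gene higher on the 1:16 diet. Mtpalpha, of mitochondrial beta-oxidation, rose from 143 to 189.9 to 292 to 345 CPM, and the lipase gene Lip4 by 1.56 on the log2 scale.

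**Figure D3:**
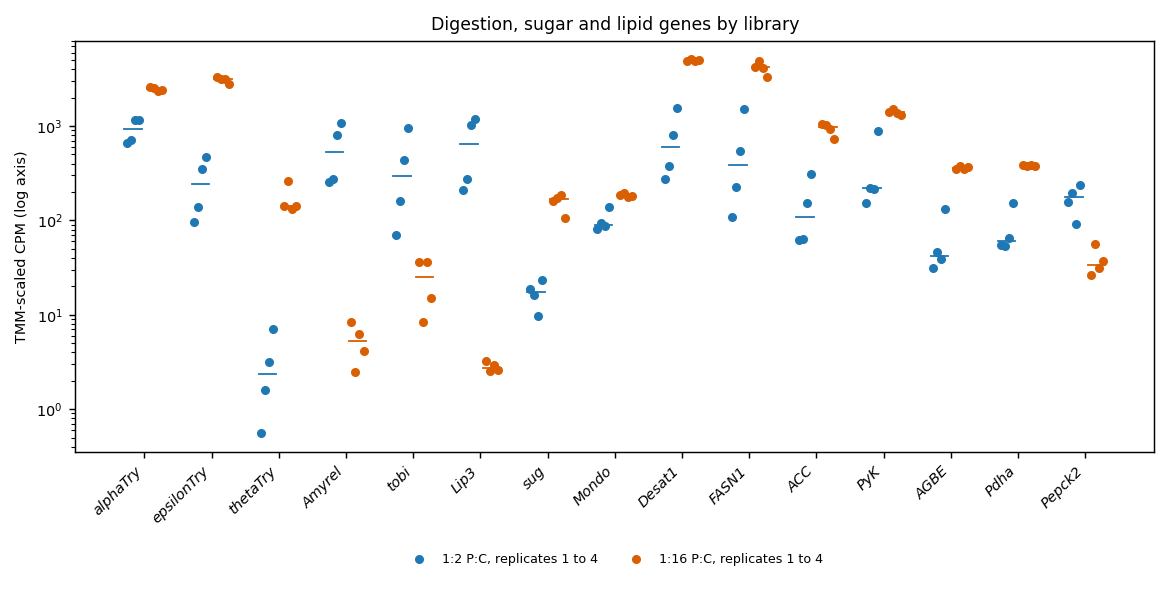
TMM-scaled CPM (log axis) of genes for digestion, sugar sensing, lipid and carbohydrate metabolism in the 4 libraries per diet, left to right in the order of replicates 1 to 4, with a line at the median of the diet. The diets do not overlap for any gene drawn. Amyrel, tobi, Lip3 and Pepck2 are lower on the 1:16 diet and the others higher, with the 1:2 libraries more spread (PyK 151 to 883 CPM) than the 1:16 libraries (1307 to 1524 CPM).

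Central carbon metabolism was higher on the 1:16 diet at most steps. Of 14 genes of glycolysis and lactate dehydrogenase 12 rose and 0 fell (median 1.43). PyK, pyruvate kinase, was at 151, 221, 216 and 883 CPM on the 1:2 diet and at 1409.7, 1524, 1387 and 1307 CPM on the 1:16 diet (log2 fold change 1.94, SE 0.47, adjusted p = 0.00316). Ald1, aldolase, was at 387, 567, 532 and 2329 CPM against 3173, 3523, 3166 and 3169 CPM (log2 fold change 1.77, SE 0.48, adjusted p = 0.0063), and the hexokinase Hex-C was at 0.805 to 1.94 against 6.51 to 9.46 CPM (log2 fold change 2.70, SE 0.34, adjusted p = 1.92e-05). Replicate 4 was above the other 1:2 libraries for PyK and Ald1, and it was below the 1:16 libraries. Glycolysis counts changed with the 1:2 libraries left out. Without replicate 2, 7 genes were higher, and without replicate 4, 14. Without replicates 2 and 3, 2 were higher, and without replicates 1 and 2, 3. Over all genes, the counts in the same order were 3513 of 12611, 4255 of 12735, 2694 of 12473 and 2965 of 12561. In the pentose phosphate pathway 4 of 5 genes rose, and Pgd, phosphogluconate dehydrogenase, went from 65.5 to 137 to 246 to 316 CPM (log2 fold change 1.55, SE 0.19, adjusted p = 1.89e-05). Only 1 of them was called without replicates 2 and 3, and 2 without replicates 1 and 2. Of 9 glycogen and trehalose genes 7 rose and 1 fell. AGBE, the glycogen branching enzyme, was at 31.1, 45.7, 38.7 and 132 CPM against 354, 379, 348 and 364 CPM (log2 fold change 2.55, SE 0.42, adjusted p = 0.00018), and Glys, glycogen synthase, rose from 45.4 to 184 to 254 to 300.0 CPM (log2 fold change 1.59, SE 0.36, adjusted p = 0.00174). The glycogen and trehalose calls without replicates 2 and 3 were 3 higher and 0 lower, and without replicates 1 and 2, 3 and 1.

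Pyruvate enters the mitochondrion through its carrier and is oxidized by pyruvate dehydrogenase, and 7 of 8 genes of this gate rose and 1 fell. Pdha, the alpha subunit of the dehydrogenase, was at 55.1, 54.1, 64.9 and 153 CPM on the 1:2 diet and at 388, 373, 386 and 375 CPM on the 1:16 diet (log2 fold change 2.22, SE 0.30, adjusted p = 3.94e-05). Pdhb, its beta subunit, rose by 2.15 and muc, the acetyltransferase subunit, by 2.56 on the log2 scale. The carrier subunit Mpc1 went from 26.3 to 94.6 to 148 to 176 CPM (log2 fold change 1.67, SE 0.36, adjusted p = 0.0014). Pdk, the kinase that inactivates pyruvate dehydrogenase, was at 219, 190.3, 212 and 249 CPM against 205, 259.6, 332 and 411 CPM, which overlap (log2 fold change 0.47, SE 0.18, adjusted p = 0.036). That call was lost without replicate 3 or 4 on the 1:16 diet (adjusted p = 0.0874 and 0.137), without replicate 1, 2 or 3 on the 1:2 diet (0.0586, 0.0976 and 0.0707) or without replicate 2 of Dahomey on the 1:2 diet (0.0967). Relative log expression scaling (0.0653), upper-quartile scaling (0.0721) and at least 10 counts in every library (0.0713) lost it too. So did limma without surrogate variables (0.0529), a replicate block (0.0507) and the fit to the 8 Alstonville libraries (0.179). PCB, pyruvate carboxylase, rose from 426 to 667 to 708 to 875 CPM. Pepck2, a phosphoenolpyruvate carboxykinase of gluconeogenesis, was the member that fell, at 157, 195, 92.6 and 239 CPM against 26.6, 56.5, 30.9 and 37.1 CPM (log2 fold change -2.18, SE 0.44, adjusted p = 0.000829). Without replicates 2 and 3, or without replicates 1 and 2, 4 genes of the gate were higher.

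Of 17 TCA cycle genes 16 rose and 0 fell (median 1.98). Idh3a, a subunit of isocitrate dehydrogenase, was at 88.1, 90.7, 106 and 223 CPM on the 1:2 diet and at 659, 592, 610.3 and 606 CPM on the 1:16 diet (log2 fold change 2.28, SE 0.28, adjusted p = 1.69e-05). mAcon1, aconitase, was at 223, 219, 226 and 539 CPM against 1495, 1456, 1399 and 1334 CPM (log2 fold change 2.24, SE 0.29, adjusted p = 2.75e-05). SdhC, a membrane subunit of succinate dehydrogenase, rose from 29.6 to 69.6 to 182 to 196 CPM. Replicate 4 was the highest 1:2 library for each of these genes, and all 1:16 libraries were above it.

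Respiratory chain genes of both genomes were higher. Of 19 tested genes of the mtDNA 14 rose and 1 fell (median 1.17). ND5, a subunit of complex I, was at 536, 558, 507 and 842 CPM on the 1:2 diet and at 1441, 1595, 1479 and 1498 CPM on the 1:16 diet (log2 fold change 1.30, SE 0.18, adjusted p = 4.29e-05). COX1, the catalytic subunit of complex IV, named after its values were seen, was at 8405, 8279, 8048 and 12684 CPM against 17296, 19518, 17956 and 17420.2 CPM (log2 fold change 0.95, SE 0.17, adjusted p = 0.000378). The large mitochondrial ribosomal RNA, lrRNA, was the transcript with the highest mean level on either diet, at 32858, 32113, 36521 and 49189 CPM against 56099, 69018, 59823 and 59366 CPM (log2 fold change 0.70, SE 0.17, adjusted p = 0.00345). It is counted in poly(A)-selected libraries only as far as it is polyadenylated. Nuclear genes of complex I rose in 32 of 39 and fell in 1 (median 1.69), and those of complexes II to V rose in 33 of 50 and fell in 3 (median 1.87). ND-51, of complex I, was at 56.7, 55.5, 70.4 and 119 CPM against 350.2, 333, 329 and 327 CPM (log2 fold change 2.15, SE 0.23, adjusted p = 7.67e-06). UQCR-6.4, of complex III, rose from 10.7 to 24.9 to 66.2 to 70.5 CPM (log2 fold change 2.19, SE 0.25, adjusted p = 9.96e-06), and ATPsynCF6, of ATP synthase, from 51.6 to 121 to 268 to 289 CPM. The members that fell were low-level paralogs with reads mainly in replicates 2 and 3 on the 1:2 diet, the libraries with testis transcripts. Without these libraries no member of either list was called lower, and 32 and 33 were called higher. Without replicate 1 on the 1:2 diet 3 and 5 were lower, and without replicate 4, 4 and 6.

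All 72 tested genes for mitochondrial ribosomal proteins rose (median 1.20), with no overlap between diets for any of them. mRpL21, of the large subunit, was at 4.88, 4.98, 4.90 and 4.95 CPM on the 1:2 diet and at 10.96, 10.1, 11.4 and 12.2 CPM on the 1:16 diet (log2 fold change 1.18, SE 0.08, adjusted p = 2.55e-07). mRpS31, of the small subunit, was at 9.55, 9.46, 9.87 and 11.99 CPM against 26.2, 27.02, 25.8 and 27.6 CPM (log2 fold change 1.38, SE 0.10, adjusted p = 5.17e-07). Of 90 cytosolic ribosomal protein genes 83 rose and 1 fell (median 0.89). Without replicates 2 and 3 on the 1:2 diet 84 rose and 0 fell. RpL38 was at 179, 161, 163 and 195 CPM against 417, 479.9, 417 and 459 CPM (log2 fold change 1.35, SE 0.11, adjusted p = 7.29e-07), and RpL3 at 1329, 1291, 1489 and 1863 CPM against 2703, 2634, 2610.1 and 2621 CPM (log2 fold change 0.82, SE 0.12, adjusted p = 8.41e-05). Both are proteins of the large subunit, and the range over the 1:16 libraries was narrow. Of 20 cytosolic aminoacyl-tRNA synthetase genes 18 rose, with a small median (0.46). LeuRS, which charges leucine tRNA, went from 39.9 to 50.2 to 76.1 to 91.2 CPM (log2 fold change 0.82, SE 0.081, adjusted p = 3.85e-06). Without replicates 2 and 3, 7 synthetases were called higher, and without replicates 1 and 2, 8. Ribosome biogenesis genes had no common direction, with 6 of 17 higher and 4 lower. Without replicate 1 on the 1:2 diet 7 were higher and 2 lower, and without replicates 1 and 2, 4 and 1. Non1, a GTPase of ribosome assembly, rose from 284 to 493 to 974 to 1093 CPM (log2 fold change 1.42, SE 0.17, adjusted p = 1.69e-05). Hsc70-5, the mitochondrial Hsp70 chaperone, rose from 113 to 162 to 357 to 401 CPM.

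Genes of the proteasome, which breaks down proteins in the cell, went the other way. Of 48 proteasome genes 37 fell and 0 rose (median -1.30), and 2 members were without reads on a diet. Without replicates 2 and 3 on the 1:2 diet 33 of 47 fell (median -1.19). Without replicates 1 and 2, 27 fell (median -0.91). Rpn2, a subunit of the regulatory particle, was at 619.8, 544, 399 and 303 CPM on the 1:2 diet and at 175, 172, 168 and 164 CPM on the 1:16 diet (log2 fold change -1.46, SE 0.24, adjusted p = 0.000188). Rpn5, of the same particle, was at 401, 352, 257 and 192 CPM against 112, 117, 115 and 113 CPM (log2 fold change -1.40, SE 0.25, adjusted p = 0.000293). Replicates 1 and 2 were the highest 1:2 libraries for both and replicate 4 the lowest, and the 1:16 libraries lay within a narrow band below all of them. Of 32 genes of the vacuolar ATPase, the proton pump of lysosomes and epithelia, 21 rose and 4 fell (median 1.04). Vha16-1, of the membrane ring, was at 1312, 1301, 1599 and 2623 CPM against 3409, 3332, 3680.1 and 3473 CPM (log2 fold change 1.02, SE 0.20, adjusted p = 0.000652), and Vha68-1, of the catalytic head, rose from 27.4 to 31.03 to 59.1 to 60.8 CPM (log2 fold change 1.04, SE 0.087, adjusted p = 1.1e-06). Without replicate 2 on the 1:2 diet 2 genes of the pump were lower, and without replicates 2 and 3, 1.

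Insulin-like peptide genes did not share a direction. Of 14 genes of insulin signalling 5 rose and 4 fell (median -0.0047). Ilp2, a peptide of brain insulin-producing cells, was at 1.91, 2.06, 2.95 and 3.10 CPM on the 1:2 diet and at 7.37, 8.72, 8.45 and 7.16 CPM on the 1:16 diet (log2 fold change 1.66, SE 0.20, adjusted p = 1.6e-05). Ilp3, of the same cells, was at 1.65, 1.48, 1.76 and 2.13 CPM against 5.27, 4.36, 6.02 and 6.14 CPM (log2 fold change 1.63, SE 0.19, adjusted p = 1.13e-05). Ilp5, the other peptide of these cells, went down, from 2.70, 1.13, 1.37 and 1.89 CPM to 0.544, 0.913, 0.885 and 0.508 CPM (log2 fold change -1.31, SE 0.31, adjusted p = 0.00234). The diets did not overlap for Ilp2, Ilp3 or Ilp5. Ilp6, the peptide of the fat body, was at 147, 109, 55.3 and 46.8 CPM against 33.1, 42.6, 36.1 and 25.2 CPM (log2 fold change -1.39, SE 0.40, adjusted p = 0.00903), and replicates 1 and 2 were well above replicates 3 and 4 on the 1:2 diet. Without replicates 1 and 2 the Ilp6 change was -0.62 and not called (adjusted p = 0.227). The receptor InR was at 86.05, 70.5, 68.6 and 38.4 CPM against 138, 109, 110.0 and 77.2 CPM, which overlap (log2 fold change 0.72, SE 0.22, adjusted p = 0.0122). That call was lost without replicates 2 and 3 on the 1:2 diet (adjusted p = 0.0917) and in the fit to the 8 Alstonville libraries (0.0852). Its substrate chico rose from 37.3 to 44.6 to 55.5 to 66.4 CPM (log2 fold change 0.60, SE 0.08, adjusted p = 3.42e-05). Without replicates 2 and 3, 3 genes were higher, and without replicates 1 and 2, 1 was lower.

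Of 17 genes of TOR and the amino acid response 9 rose and 2 fell (median 0.27). path (pathetic), an amino acid transporter needed for growth, was at 124, 95.97, 111 and 163 CPM on the 1:2 diet and at 415, 365, 367 and 327 CPM on the 1:16 diet (log2 fold change 1.57, SE 0.15, adjusted p = 2.71e-06). Thor (4E-BP), the translation repressor that TOR inactivates, was at 698, 678, 775 and 677 CPM against 1217, 1254, 1346 and 1389 CPM (log2 fold change 0.88, SE 0.17, adjusted p = 0.000508). The TOR activator Rheb and the TOR target S6k rose by less, Rheb from 58.4 to 71.3 to 97.6 to 104 CPM and S6k from 127 to 156 to 194 to 203 CPM. Gcn2, the kinase that senses amino acid lack, and crc (ATF4), the factor it induces, rose by 0.84 and 0.57 on the log2 scale. slif, an amino acid transporter of the fat body, was at 51.1, 46.8, 40.7 and 75.4 CPM against 102, 101, 104 and 109 CPM (log2 fold change 0.96, SE 0.30, adjusted p = 0.0135). Sesn (sestrin), an inhibitor of TOR, fell from 201, 191, 101 and 96.7 CPM to 68.9, 76.7, 76.8 and 71.4 CPM (log2 fold change -1.004, SE 0.24, adjusted p = 0.00239). Without replicates 1 and 2 on the 1:2 diet 6 of these genes were higher and 0 lower, and slif and Sesn were not called (adjusted p = 0.146 and 0.0893).

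Of 11 serine and one-carbon genes 5 rose and 5 fell. Sardh, which demethylates sarcosine, was at 38.6, 41.8, 69.6 and 127 CPM on the 1:2 diet and at 7.28, 10.1, 5.40 and 5.73 CPM on the 1:16 diet (log2 fold change -3.28, SE 0.35, adjusted p = 7.4e-06). Shmt, serine hydroxymethyltransferase, fell from 172 to 525 to 85.7 to 102 CPM (log2 fold change -1.82, SE 0.34, adjusted p = 0.000487). Cbs, of the transsulfuration step, rose from 25.9 to 58.98 to 86.6 to 107 CPM (log2 fold change 1.26, SE 0.22, adjusted p = 0.000302), and Adss, of purine synthesis, from 91.6 to 231 to 570.4 to 601 CPM. Without replicates 2 and 3, or 1 and 2, 3 were higher.

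DNA replication and mitosis genes were lower on the 1:16 diet. Of 28 replication and cell cycle genes 22 fell and 2 rose (median -0.90). CycB, the mitotic cyclin B, was at 56.5, 55.2, 54.2 and 42.8 CPM on the 1:2 diet and at 5.86, 11.1, 6.15 and 6.65 CPM on the 1:16 diet (log2 fold change -2.81, SE 0.28, adjusted p = 3.92e-06). CycA, the other mitotic cyclin, was at 71.6, 62.9, 55.6 and 44.9 CPM against 12.3, 16.6, 10.6 and 13.5 CPM (log2 fold change -2.15, SE 0.22, adjusted p = 4.58e-06). Replicate 2 was the highest 1:16 library for both cyclins, and it was far below every 1:2 library. dup, the Cdt1 factor of replication licensing, fell from 17.4 to 21.1 to 7.66 to 10.04 CPM. Psf3, of the GINS helicase complex, was a member that rose, from 9.97 to 14.4 to 30.1 to 33.5 CPM (log2 fold change 1.41, SE 0.13, adjusted p = 2.63e-06). The counts without replicates 2 and 3 were 22 lower and 1 higher. Further mitotic genes, named after their values were seen, moved with the cyclins. stg (string), the Cdc25 phosphatase that starts mitosis, was at 43.7, 32.4, 36.7 and 42.6 CPM against 4.44, 10.4, 4.34 and 4.94 CPM (log2 fold change -2.69, SE 0.28, adjusted p = 6.06e-06). fzy (Cdc20) changed by -2.54, the kinase aurB by -1.88 and the kinesin pav by -1.96 on the log2 scale, and the helicase subunit Mcm6 by -0.89. Of 5 ovary markers 1 was higher and 1 lower (median 0.50), and the lower one, ovo, a transcription factor gene of the germ line and epidermis, made up most of their summed level of 63.4, 50.7, 46.1 and 44.9 CPM on the 1:2 diet and 12.3, 14.5, 13.2 and 16.4 CPM on the 1:16 diet.

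Cell death genes fell in 7 of 10 and rose in 0 (median -1.26). Drice, the main effector caspase, was at 135, 128, 91.2 and 87.1 CPM on the 1:2 diet and at 25.4, 26.6, 25.4 and 21.6 CPM on the 1:16 diet (log2 fold change -2.16, SE 0.24, adjusted p = 9.68e-06). hid, an inducer of apoptosis, was at 45.4, 38.2, 17.6 and 11.7 CPM against 3.60, 5.89, 5.67 and 3.003 CPM (log2 fold change -2.63, SE 0.42, adjusted p = 0.000132). The related inducers grim and skl were at low levels of 0.684 to 1.32 and 1.21 to 1.95 CPM on the 1:2 diet and changed by -1.87 and -1.91 on the log2 scale. Of 20 autophagy genes 13 fell and 4 rose (median -0.53). Atg8a, the protein of the autophagosome membrane, was at 749, 690.3, 597 and 584 CPM against 410.1, 410.0, 414 and 355 CPM (log2 fold change -0.72, SE 0.12, adjusted p = 0.000197), and Atg9 fell from 104 to 122 to 69.7 to 83.6 CPM. The autophagy genes that rose numbered 2 without replicate 2 on the 1:2 diet, 1 without replicate 3 and 2 without replicate 4. Without replicates 1 and 2, 6 autophagy genes fell and 2 rose, and without replicates 2 and 3, 11 fell and 0 rose. Replicates 1 and 2 held the highest levels of Drice, hid and Atg8a, as they did for the ecdysone response genes.

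**Figure D4:**
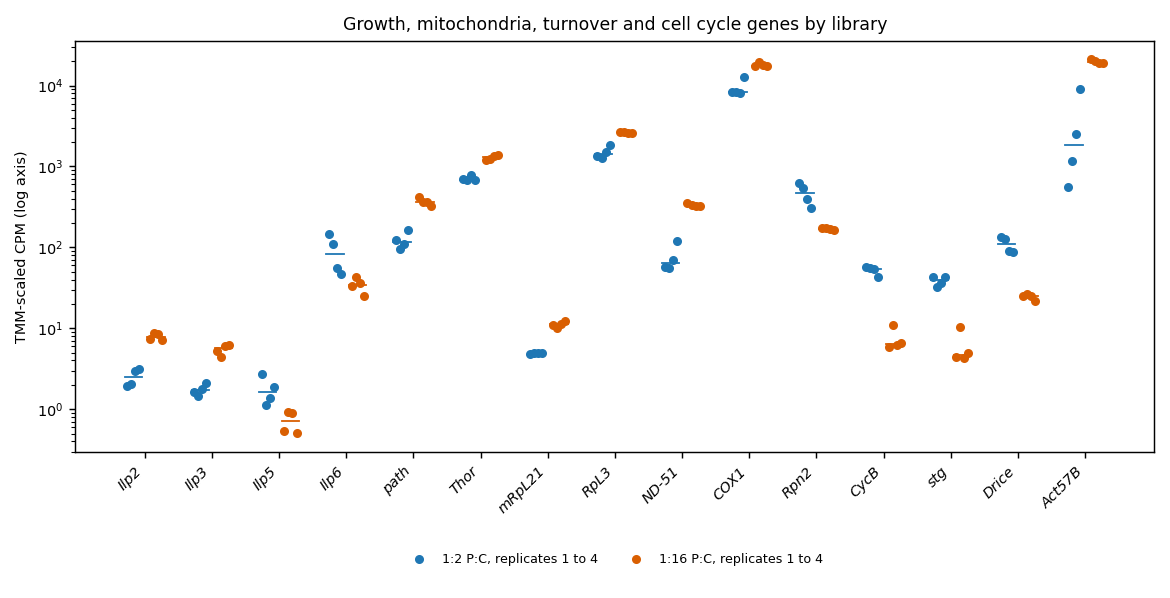
TMM-scaled CPM (log axis) of genes for insulin-like peptides, TOR and translation, mitochondria, the proteasome, the cell cycle, cell death and muscle in the 4 libraries per diet, left to right in the order of replicates 1 to 4, with a line at the median of the diet. Ilp2 and Ilp3 are higher and Ilp5 and Ilp6 lower on the 1:16 diet, and Act57B (555 to 9032 CPM on the 1:2 diet) is the most spread.

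Muscle genes were higher on the 1:16 diet, in 17 of 19 sarcomere genes (median 2.24). Act57B, the main larval muscle actin, was at 555, 1155, 2497 and 9032 CPM on the 1:2 diet and at 21061, 20410.3, 19068 and 18818 CPM on the 1:16 diet (log2 fold change 2.58, SE 0.69, adjusted p = 0.00542). TpnC25D, a troponin C, was at 1.47, 2.77, 6.74 and 35.7 CPM against 196, 191, 167 and 184 CPM (log2 fold change 3.99, SE 0.86, adjusted p = 0.0013). Tm1 (tropomyosin) and wupA (troponin I) rose by 1.97 and 2.16, and the Z-disc gene Zasp52 from 257 to 608 to 1095 to 1264 CPM. The 1:2 libraries spread widely in summed level, at 4034, 6413, 11640.1 and 39868 CPM, while the 1:16 libraries lay at 82736, 86883, 75776 and 79942 CPM. In the fit without replicates 2 and 3, 8 sarcomere genes were called and Act57B was not (1.96, adjusted p = 0.0635), and without replicates 1 and 2, 12 were called.

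Neuron markers did not move as a group, with 3 of 6 higher and 2 lower and summed levels of 336, 307, 324 and 317 CPM on the 1:2 diet and 320.3, 348, 322 and 333 CPM on the 1:16 diet. nSyb, the synaptobrevin of synapses, rose from 20.95 to 26.8 to 54.1 to 58.5 CPM (log2 fold change 1.23, SE 0.10, adjusted p = 1.12e-06) and the sodium channel para from 6.98 to 12.4 to 33.7 to 37.9 CPM (log2 fold change 1.86, SE 0.18, adjusted p = 3.24e-06). The RNA-binding protein gene elav, a general neuron marker, fell from 55.8 to 71.6 to 33.3 to 46.5 CPM (log2 fold change -0.77, SE 0.14, adjusted p = 0.000404), and Syt1 (synaptotagmin) by -0.51 on the log2 scale. A few genes of neuropeptides and their processing were named after their values were seen and stand for no group. sNPF, a peptide that promotes feeding, was at 4.50, 4.67, 5.82 and 5.79 CPM against 21.05, 23.4, 24.5 and 27.4 CPM (log2 fold change 2.21, SE 0.13, adjusted p = 1.24e-07), and NPF, the fly relative of neuropeptide Y, at 0.970, 1.42, 1.68 and 1.57 CPM against 11.2, 12.2, 12.2 and 13.3 CPM (log2 fold change 3.11, SE 0.19, adjusted p = 1.57e-07). amon, the convertase that cuts neuropeptide precursors, was at 15.9, 14.8, 15.2 and 17.1 CPM against 38.6, 35.1, 37.1 and 40.6 CPM (log2 fold change 1.27, SE 0.067, adjusted p = 8.85e-08). Its partner 7B2, a chaperone of the convertase, rose from 8.03 to 9.94 to 30.7 to 36.96 CPM (log2 fold change 1.89, SE 0.088, adjusted p = 6.79e-08). For sNPF, NPF, amon and 7B2 the diets did not overlap.

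Antimicrobial peptide genes fell in 6 of 18 and rose in 1 (median -0.10), and without replicate 3 on the 1:2 diet 5 rose and 5 fell (median 1.22). Drs (drosomycin), an antifungal peptide, was at 164, 227, 1609.5 and 11.5 CPM on the 1:2 diet and at 7.70, 5.77, 3.10 and 4.39 CPM on the 1:16 diet (log2 fold change -6.58, SE 1.23, adjusted p = 0.000446). Replicate 3 was far above the other libraries, and replicate 4 was the nearest to the 1:16 libraries. Drsl5, a related peptide, had 48.2, 42.3, 0.105 and 0 CPM against 0.0418, 0, 0 and 0.0462 CPM, so that its reads came from replicates 1 and 2. Drsl5 was not called without these replicates (adjusted p = 0.711). Haemocyte markers summed to 555, 715, 115 and 2145 CPM on the 1:2 diet and 1075, 1201, 989 and 938 CPM on the 1:16 diet, with 0 of 8 higher and 3 lower, and 4 higher without replicate 4. He (hemese), a blood cell surface protein, was at 49.2, 35.7, 37.9 and 55.4 CPM against 6.28, 9.55, 6.82 and 7.16 CPM (log2 fold change -2.58, SE 0.22, adjusted p = 1.45e-06). The phagocyte receptor NimC1 was at 60.1, 67.9, 7.45 and 92.8 CPM against 25.7, 27.9, 22.6 and 26.6 CPM, with replicate 3 on the 1:2 diet below all other libraries. The call of NimC1 (log2 fold change -1.15, SE 0.47, adjusted p = 0.0494) was kept without replicate 3 on the 1:2 diet and lost without any other Alstonville library (adjusted p from 0.0767 to 0.144) and without most Dahomey libraries. The part of blood cell numbers in the peptide values was not tested.

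Detoxification genes moved in both directions, with more higher than lower. Of 31 UDP-glycosyltransferase genes 20 rose and 6 fell (median 1.32), of 78 cytochrome P450 genes 34 rose and 17 fell, and of 37 glutathione S-transferase genes 17 rose and 5 fell. Ugt49C1 was at 0.323, 0.158, 0.237 and 1.57 CPM on the 1:2 diet and at 22.9, 22.5, 23.01 and 23.3 CPM on the 1:16 diet (log2 fold change 5.37, SE 0.65, adjusted p = 1.69e-05), and Ugt37C1 at 0.0294 to 0.603 against 9.75 to 15.5 CPM (log2 fold change 6.10, SE 0.77, adjusted p = 2.31e-05). Both are conjugating enzymes, and the diets did not overlap. Among P450 genes Cyp4c3 rose from 2.35 to 3.30 to 31.9 to 53.6 CPM (log2 fold change 3.82, SE 0.26, adjusted p = 2.72e-07). Cyp6g1, known for insecticide metabolism, fell from 236, 296, 161 and 146 CPM to 16.3, 21.7, 20.4 and 26.8 CPM (log2 fold change -3.30, SE 0.32, adjusted p = 3.18e-06), and Cyp9f2 from 533 to 691 to 229.6 to 254 CPM. GstE1 rose by 2.09 and GstE14, the transferase that serves ecdysone synthesis, changed by -2.78 on the log2 scale. When replicates 2 and 3 were left out, 11 transferases were higher and 5 lower. In that fit 25 P450 genes were higher and 19 lower. Without replicates 1 and 2 the P450 counts were 24 and 19 (median 0.29). Of 16 antioxidant genes 10 rose and 2 fell, and 6 rose without replicates 2 and 3. Prx2, a peroxiredoxin, was at 99.2, 94.6, 98.996 and 236 CPM against 871, 920.1, 909 and 930.2 CPM (log2 fold change 2.78, SE 0.32, adjusted p = 1.14e-05), and Trxr1, thioredoxin reductase, rose from 141 to 211 to 329.7 to 359.6 CPM. Cat, the catalase of peroxisomes, was at 681, 847, 657 and 1684 CPM against 341, 409.7, 323 and 359.9 CPM (log2 fold change -1.43, SE 0.27, adjusted p = 0.000492).

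Among the 8 largest rises and 8 largest falls without overlap, with at least 5 CPM on the higher diet, were genes outside the lists above. Iris, a gene derived from a retroviral envelope, was at 0.176, 0.132, 0.0263 and 0.322 CPM on the 1:2 diet and at 70.5, 70.7, 79.4 and 66.3 CPM on the 1:16 diet (log2 fold change 8.83, SE 0.51, adjusted p = 1.24e-07). The odorant-binding protein gene Obp99d was at 0.0294, 0, 0.0263 and 0 CPM against 10.002, 7.89, 8.54 and 6.24 CPM, a count ratio of 553 (95% counting interval 153 to 4576). CG13170 rose from 0 to 0.0527 to 10.7 to 14.8 CPM (log2 fold change 8.54, SE 0.70, adjusted p = 1.01e-06). CG42815 had no reads in any 1:2 library and 1.46, 6.52, 1.06 and 13.3 CPM on the 1:16 diet, at least 60.8-fold higher against a floor of 3 counts per library. Of the falls, CG34377 was at 25.96, 22.3, 15.6 and 10.2 CPM on the 1:2 diet and without reads on the 1:16 diet, at least 142-fold lower. CG42834 was at 94.4, 68.8, 59.1 and 17.9 CPM against 0, 0.0415, 0 and 0 CPM, where the 1:16 level is a lone count, a count ratio of 5824 (95% counting interval 1045 to 230056). CG42460 fell from 36.9 to 207 to 0 to 0.0837 CPM (log2 fold change -11.45, SE 2.19, adjusted p = 0.000542) and CG7606 from 234 to 877 to 0.0837 to 0.277 CPM (log2 fold change -11.44, SE 2.17, adjusted p = 0.000508). In CG34377, CG42834, CG42460 and CG7606 replicate 1 was the highest and replicate 4 the lowest of the 1:2 libraries. CG6271, a lipase gene, had the reverse order, at 65.9, 112, 367 and 1051 CPM against 0.0837, 0.208, 0.133 and 0.139 CPM (log2 fold change -11.42, SE 1.11, adjusted p = 3.4e-06). TwdlO, TwdlP, Cpr47Eg, Lcp65Ag1, Sgs3, Sgs8 and Sgs5bis, given above, complete the 16.

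The same contrast was fitted in Dahomey larvae, on libraries that the Alstonville contrast does not use. These also held transcripts of the testis and male genes. Their summed level was 50.2, 297, 51.6 and 1260.6 CPM on the 1:2 diet and 479, 351, 422 and 469 CPM on the 1:16 diet. The part of these transcripts in the Dahomey calls, the shared calls and the interaction was not tested. In Dahomey 6249 genes (49.0%) were called (24.6% higher and 24.4% lower on the 1:16 diet), and 5459 were called in both mitotypes, which is 71.5% of the Alstonville calls and 87.4% of the Dahomey calls. Of these shared calls 5449 had the same direction and 10 the opposite. Across the 12750 tested genes, which are not independent replicates and share their fit and scaling, 88.5% had the same sign and the correlation of the log2 fold changes was r = 0.84. Over the 7640 genes called in Alstonville the median size of the log2 fold change was 1.07 in Alstonville and 0.741 in Dahomey, with the larger size in Alstonville for 6147 of them. Those genes were chosen by their Alstonville values, so that this comparison of sizes favours Alstonville. The interaction of mitotype and diet, the test of the difference itself, was called for 100 genes (0.784%) and had an unadjusted p under 0.05 for 1936. The diet effect was more positive in Alstonville for 52 (0.408%) of the 100 and more negative for 48 (0.376%), while with relative log expression scaling it was more positive for 48 of 130 and with upper-quartile scaling for 26 of 155. For 2141 of the 2181 genes called in Alstonville alone, a difference from Dahomey was therefore not shown.

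The glue genes are an example. Sgs3 had log2 fold changes of -11.35 in Alstonville and -4.27 in Dahomey, but the difference was not called (adjusted p = 0.151). Its Dahomey 1:16 libraries were at 1.22, 1053, 1.80 and 2.29 CPM, with replicate 2 far above the others, against 4416, 4354, 6804 and 4899.9 CPM on the 1:2 diet. Alike, the values of Fbp1 were -11.32 and -4.61 (adjusted p = 0.165). Replicate 2 of the Dahomey 1:16 libraries stood apart for the L71 genes too, which summed to 0.630, 842, 0.671 and 0.985 CPM. Other genes had near-equal fits in the 2 mitotypes, among them Amyrel (-6.82 in Alstonville and -7.06 in Dahomey), Lip3 (-7.90 and -7.74) and alphaTry (1.42 and 1.11). The mitochondrial ribosomal protein genes rose in 72 of 72 in Dahomey too, with a median of 0.76 against 1.20 in Alstonville. Of them mRpS5, named after its values were seen, was the member with a called difference (0.65, SE 0.12, adjusted p = 0.0373), a call lost without 11 of the 16 libraries in turn. It was at 35.1, 29.7, 28.4 and 34.4 CPM and 66.4, 70.8, 66.7 and 68.5 CPM on the 1:2 and 1:16 diets in Alstonville and at 31.5, 36.5, 34.7 and 32.4 CPM and 51.6, 41.1, 46.6 and 45.01 CPM in Dahomey.

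Of the genes named here 17 had a called interaction. For 15 of them the call was kept in 3 to 7 of the fits that left out 1 of the 16 libraries, and CG15414 and Ir68a kept it in all 16. The direction of the difference was the same in every such fit for all 17. None of the 15 was called without replicates 2 and 3 of the Alstonville 1:2 libraries (adjusted p from 0.0579 to 0.291). TwdlO rose by 11.65 in Alstonville and 3.78 in Dahomey, where it was at 0.0347, 0.0358, 0.0633 and 0.0319 CPM on the 1:2 diet and 1.18, 0.241, 0.838 and 0.317 CPM on the 1:16 diet (difference 7.87, SE 1.44, adjusted p = 0.0346). TwdlN, its paralog, was at 0.0294, 0, 0.0263 and 0.0805 CPM and 8.08, 5.93, 11.2 and 16.4 CPM in Alstonville (difference 6.47, SE 1.11, adjusted p = 0.0306). Lcp65Af, another cuticle gene, rose from 0.0527 to 0.241 to 9.74 to 19.4 CPM in Alstonville (difference 3.42, SE 0.68, adjusted p = 0.0381). In the cell cycle, CycB had log2 fold changes of -2.81 in Alstonville and -1.01 in Dahomey (difference -1.80, SE 0.37, adjusted p = 0.045), and dup had -1.19 and -0.38 (-0.81, SE 0.16, adjusted p = 0.0377). The values of stg were -2.69 and -0.79 (-1.90, SE 0.38, adjusted p = 0.0377), and its Dahomey libraries were at 38.9, 39.5, 32.7 and 33.6 CPM and 15.7, 29.5, 17.2 and 21.3 CPM on the 1:2 and 1:16 diets. For fzy, aurB, pav and Mcm6 the differences were -1.78, -1.45, -1.40 and -0.84, each with an adjusted p between 0.038 and 0.050. Of these 7 genes stg, fzy, aurB, pav and Mcm6 were named after their values were seen, so that their number says nothing of cell cycle genes at large. Of the 28 replication and cell cycle genes 4 had a called interaction. In that list 22 genes were lower in Alstonville (median -0.90) and 7 in Dahomey (median -0.22), a difference that was not tested over the list.

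chico rose in Alstonville by 0.60 with a value of 0.037 in Dahomey (difference 0.56, SE 0.11, adjusted p = 0.0397). The peptide gene sNPF rose by 2.21 and 1.24 (0.97, SE 0.17, adjusted p = 0.0315), 7B2 by 1.89 and 1.22 (0.68, SE 0.12, adjusted p = 0.0315) and amon by 1.27 and 0.72 (0.55, SE 0.093, adjusted p = 0.0283). The last 3 rose in both mitotypes. Opposite signs were found for 18 of the 100 genes. CG15414, named after its values were seen, was at 20.8, 22.2, 15.6 and 19.8 CPM and 51.9, 37.6, 46.96 and 52.8 CPM on the 1:2 and 1:16 diets in Alstonville and at 21.1, 21.1, 21.3 and 21.8 CPM and 13.2, 14.9, 12.6 and 12.5 CPM in Dahomey. It thus rose in Alstonville (1.27) with a value of -0.68 in Dahomey (difference 1.95, SE 0.17, adjusted p = 0.000235). Ir68a, a receptor gene of humidity-sensing neurons in the adult, also named after its values were seen, was low, at 0.853, 0.870, 0.763 and 0.885 CPM and 0.209, 0.374, 0.354 and 0.277 CPM in Alstonville and 1.63, 1.33, 1.14 and 1.47 CPM and 3.44, 4.86, 3.14 and 2.32 CPM in Dahomey (difference -2.76, SE 0.38, adjusted p = 0.015). Over all genes 6 interactions were called without replicates 2 and 3 of the Alstonville 1:2 libraries. When 1 library was left out, 4 were called without replicate 1 or 3 of Alstonville on the 1:16 diet. The count was also 4 without replicate 4 of Dahomey on that diet or replicate 1 of Dahomey on the 1:2 diet. It was 396 without replicate 4 of Alstonville on the 1:2 diet and 244 without replicate 4 of Dahomey on the 1:2 diet.

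**Figure D5:**
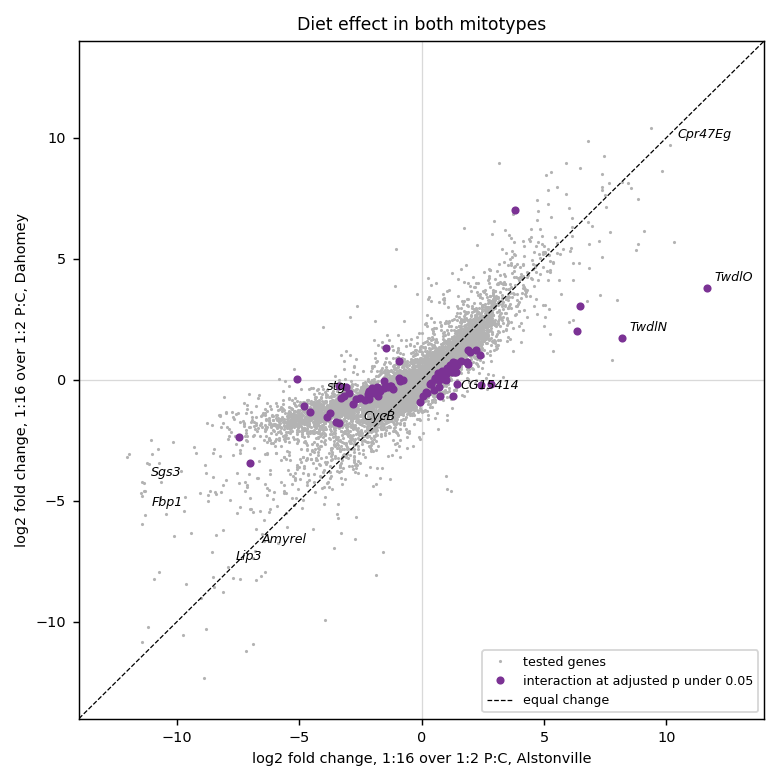
Log2 fold change (1:16 over 1:2) of each of 12750 tested genes in Alstonville (x axis) against that in Dahomey (y axis), 4 libraries per mitotype and diet, with the 100 genes of a called interaction as filled circles and a dashed line where the changes are equal. TwdlO and TwdlN lie far below the line, and most genes with large falls lie above it on the left, with a smaller fall in Dahomey. For salivary gland markers, replicate 2 of the Dahomey 1:16 libraries was far above the others (summed level 39.2, 2684, 44.5 and 42.1 CPM). The part of that library in the smaller falls was not tested.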

How the data were processed

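Poly(A)-selected RNA of 16 samples was sequenced as paired reads, which the authors aligned with Subread. They deposited raw read counts per NCBI gene made with featureCounts. The annotation was that of assembly Release 6 plus ISO1 MT, and the versions of these tools are not given in the sources used here. The study describes its replicates as biological, and the labels number them without naming cultures. A protocol in the labels speaks of sorted cells, while the methods of the study describe whole larvae.

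A gene was tested where 4 or more libraries reached 0.25 CPM, and TMM factors were computed. The robust quasi-likelihood test of edgeR 4.0.16 (R 4.3.3) was fitted to all 16 libraries as 4 groups (12 residual degrees of freedom, common biological coefficient of variation 0.5215), with Benjamini-Hochberg adjustment over all genes and a threshold of 0.05. SE is the log2 fold change over its test statistic. On simulated data of 12595 genes for the Alstonville contrast, 63 of 100 genes changed by 2 on the log2 scale and 38 of 100 changed by 1 were recovered, with 5 other calls. The simulation changed 200 genes, with independent noise per gene, while 7640 genes were called in the data. These rates need not hold for the data. Alternatives used relative log expression or upper-quartile scaling, other filters, DESeq2 1.42.0, limma 3.58.1 with a prior count of 2, with and without 2 surrogate variables taken from the residuals, a replicate block, 8 libraries, a threshold of 0.01, and each library left out. Leaving out replicates 2 and 3, or 1 and 2, of the Alstonville 1:2 libraries was added after seeing the data.

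The members and the 47 gene lists were chosen with earlier results of these data known. Named were the 8 largest rises and 8 largest falls among called genes without overlap and with a mean of at least 5 CPM on the higher diet, and, for each list, up to 4 called members with the smallest p and the most abundant member. All tested members of the lists for sugar sensing, the pyruvate gate, insulin and TOR qualified as well. Of the 242 genes so gathered, with those added after their values were seen, 176 are given with values. A floor of 3 counts per library was used for genes without reads on a diet, and 95% counting intervals cover counting error only. Gene positions come from a table of the same assembly.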

Additional observations from a re-analysis of the deposited data

Results flagged for a closer look

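A library was taken to stand apart from the other 3 of its diet where the gap takes up most of the range. By this measure (Dixon test at the 5% level) it did so in 54 of the 366 groups of 4 libraries checked. The groups are genes measured in the same libraries, and the genes were partly chosen by their values. The rate of 1 in 20 for independent groups is therefore no measure of an excess here. Replicate 4 on the 1:2 P:C diet was the high library for 28 genes. Among glue-cluster, storage and cuticle genes these were ng2 (2.45 CPM), ng1 (4.39 CPM), Lsp1alpha (26694 CPM), Lsp1beta (30869 CPM), Cpr47Eg (1.41 CPM) and Lcp65Ag1 (2.13 CPM). For carbohydrate and pyruvate metabolism they were PyK (883 CPM), Ald1 (2329 CPM), AGBE (132 CPM), Pdha (153 CPM), Pdhb (122 CPM), muc (156 CPM) and PCB (667 CPM). In the TCA cycle, the respiratory chain and the mitochondrial ribosome they were Idh3a (223 CPM), mAcon1 (539 CPM), SdhC (69.6 CPM), COX1 (12684 CPM), ND5 (842 CPM), mRpS31 (11.99 CPM), UQCR-6.4 (24.9 CPM) and ATPsynCF6 (121 CPM). The others were deltaTry (220.2 CPM), crc (798 CPM), TpnC25D (35.7 CPM), GstE1 (18.1 CPM), Ugt49C1 (1.57 CPM), Ugt37C1 (0.603 CPM) and Prx2 (236 CPM). It was the low library for Sgs4 (1196 CPM) and CycB (42.8 CPM). Replicate 2 on the 1:16 P:C diet was the high library for 15 genes. Of the stage, storage and cuticle genes these were Sgs7 (1.29 CPM), Pig1 (123 CPM), Eip74EF (24.5 CPM), Lsp2 (157 CPM), Fbp2 (111 CPM), Lsp1alpha (641 CPM), Lsp1gamma (6058 CPM) and Lcp1 (52.9996 CPM), and the rest were thetaTry (264 CPM), Ald1 (3523 CPM), CycB (11.1 CPM), stg (10.4 CPM), skl (0.581 CPM), Cyp9f2 (254 CPM) and CG42834 (0.0415 CPM). It was low for TwdlP (25.4 CPM). Of the other 1:16 libraries, replicate 3 was high for Sgs3 (2.26 CPM) and cbt (260.0 CPM), replicate 4 was high for Lcp65Af (19.4 CPM) and low for Atg8a (355 CPM), and replicate 1 was low for bmm (28.2 CPM). On the 1:2 P:C diet, replicate 1 was low for bigmax (13.8 CPM), and replicate 3 was high for Drs (1609.5 CPM) and low for eater (3.001 CPM).

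The diet effect differed between the mitotypes, by the interaction in the quasi-likelihood fit, for 17 of the genes named. The Alstonville effect minus the Dahomey effect, on the log2 scale, was positive for the cuticle genes TwdlO (7.87), TwdlN (6.47) and Lcp65Af (3.42), for the insulin receptor substrate chico (0.56), for the peptide genes sNPF (0.97), 7B2 (0.68) and amon (0.55), for mRpS5 (0.65) and for CG15414 (1.95). It was negative for the cell cycle genes stg (-1.90), CycB (-1.80), fzy (-1.78), aurB (-1.45), pav (-1.40), Mcm6 (-0.84) and dup (-0.81) and for Ir68a (-2.76). CG15414 and Ir68a kept the call without each of the 16 libraries in turn, and each of the others lost it in 6 or more of the fits that tested it.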

How the results depend on the processing

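The count of genes called for diet in Alstonville (7640) was 7825 and 7851 with relative log expression and upper-quartile scaling, 8569 in DESeq2, 9697 with 2 surrogate variables, which were taken from the residuals and so lower the residual spread, 6089 without replicates 2 and 3 of the 1:2 libraries, 5584 without replicates 1 and 2, and 6691 to 8451 without each library in turn. No alternative moved it, or the Dahomey count, by more than 1.5 times. The 2 scalings put the median of all genes at -0.17 and -0.19 in place of -0.11.

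The count of interactions (100) depended on the settings. It was 155 with upper-quartile scaling, 210 with at least 10 counts in every library, 726 in DESeq2, 176 in limma, 3449 with 2 surrogate variables, 3 at an adjusted p under 0.01, 6 without replicates 2 and 3 of the Alstonville 1:2 libraries, 50 without replicates 1 and 2, and 4 to 396 without each library in turn. The cause was not tested beyond what these settings change.

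Of the comparisons of a named gene with an alternative, 4759 kept direction and side of the threshold, 106 lost the call, 16 gained it and 9 changed direction. Many of these genes were named for their size or p in the main fit, which favours kept calls. Fits without a Dahomey library leave the Alstonville libraries as they were. The tally is therefore no measure of stability for genes at large. Lsp1beta ranged from -0.55 to 1.66 without each library in turn (-0.0060 and -0.12 without replicates 3 and 1 of the 1:2 libraries), and was at -0.44 without replicates 2 and 3 of the 1:2 libraries and -0.57 without replicates 1 and 2. Hnf4 was at -0.04 and -0.0085 in these fits. betaTub85D and dj turned to 1.96 and 2.15 without replicates 2 and 3. Without replicates 1 and 2, or 2 and 3, Jon65Aiv, Hr38, Ald1, Pdk, PCB, lrRNA, slif and Mst87F were not called, and PyK (adjusted p = 0.0558), bigmax, InR and Act57B were not called without replicates 2 and 3. Lsp1gamma was called in DESeq2, limma and the replicate block. List medians changed sign in 30 cases, all in the lists of ribosome biogenesis, antimicrobial peptides, haemocyte, testis and ovary markers, insulin signalling and carbohydrases.

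Same-numbered libraries of the 2 diets did not deviate together (r = 0.1355, 0.1231, -0.5088 and -0.4403), so the numbers were not taken as pairs. With a replicate block 7288 genes were called in Alstonville, 6120 in Dahomey and 136 interactions. Depth limits mainly genes near the floor of 3 counts per library.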
